A study of Mus musculus with 6 samples.

Results

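The genes examined here encode the proteases that cut the extracellular matrix and the inhibitors that restrain them, in the colon of mice prone (OP) or resistant (OR) to obesity. They were taken by name, as every gene symbol made of *Mmp*, *Timp*, *Adamts* or *Adamtsl* and a number, which gave 48 of the 17778 gene symbols in the expression data. Of these, 20 are matrix metalloproteinases (*Mmp*), 4 are tissue inhibitors of metalloproteinases (*Timp*), 19 are secreted proteases of the ADAMTS family and 5 are ADAMTS-like genes. Colon RNA came from 3 OP mice and 3 OR mice, each sequenced as its own library. All 6 mice were wild-type males of the C57BL/6J strain, aged 21 weeks, that had eaten a diet with 60% fat for 16 weeks. The study ranked 42 mice on this diet by weight gain and named the 10 that gained most OP and the 10 that gained least OR. The groups are therefore the ends of one inbred cohort, and no mice on normal diet are among the samples analysed here. Levels are given in FPKM, a fragment count divided by transcript length and by the total of the library, so that levels of different genes can be set side by side.

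Metalloproteinases of the MMP family carry a zinc ion in the active site and are made as inactive precursors that have to be opened before they cut. Secreted members such as the collagenases, gelatinases and stromelysins act in the matrix, and membrane-type members act at the cell surface. TIMP proteins block MMPs by filling the active site, and TIMP3, which stays bound to the matrix, also blocks several ADAMTS and ADAM proteases. ADAMTS enzymes cut proteoglycans such as versican, trim procollagens or cleave more specialised substrates, while ADAMTS-like proteins share the binding domains and have no protease domain. In the gut these genes are known mainly from fibroblasts, macrophages and, for some members, the epithelium, and they take part in the turnover of the connective tissue under the crypts.

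The 8 genes *Mmp13*, *Mmp12*, *Mmp3*, *Mmp10*, *Mmp8*, *Mmp27*, *Mmp20* and *Mmp7* are neighbours on chromosome 9, and the sequence before their start was compared with that of the other members. RefSeq promoter sequences of build GRCm38.p6 were found for 33 of the 48 genes, and the 250 bases before each annotated start were searched on both strands. The 15 genes without one, among them *Mmp2*, *Mmp9*, *Mmp19*, *Adamts15* and *Adamtsl1*, are all outside these 8 neighbours. A gene was counted if any of its starts matched, whereas shares over all are per promoter. The motifs were the AP-1 site, spelled TGACTCA and on the other strand read as TGAGTCA, the TATA box, spelled TATAAA and on the other strand read as TTTATA, and the GC box, spelled GGGCGG and on the other strand read as CCGCCC. No hits of different motifs overlapped. An AP-1 site was present in 5 of the 8 neighbours and in 0 of the other 25 genes, against 4.46% of all 32851 promoters. GC boxes were present in 0 of the 8 and in 20 of the 25, against 32.7% of all promoters, and a TATA box in 5 of the 8 and 2 of the 25, against 12.4%. The GC content before the start had a median of 39.8% over the 10 annotated starts of the neighbours and 64.8% over the 26 of the other genes, with 52.4% over all promoters. The 120 bases before the start are shown for the 5 neighbours with an AP-1 site and for *Mmp14*, *Timp2*, *Timp3* and *Adamts1*, 4 members outside the cluster that were among the more abundant or differed most between the groups. Capitals mark the motifs, and each sequence reads from 5′ to 3′ in the direction of the gene.
Mmp13 (chr9:7272394-7272513, plus strand): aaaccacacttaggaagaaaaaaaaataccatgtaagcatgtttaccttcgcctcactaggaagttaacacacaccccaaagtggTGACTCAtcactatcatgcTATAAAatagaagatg
Mmp12 (chr9:7347254-7347373, plus strand): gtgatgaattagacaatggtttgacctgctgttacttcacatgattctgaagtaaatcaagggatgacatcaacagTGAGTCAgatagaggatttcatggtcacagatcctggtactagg
Mmp3 (chr9:7445702-7445821, plus strand): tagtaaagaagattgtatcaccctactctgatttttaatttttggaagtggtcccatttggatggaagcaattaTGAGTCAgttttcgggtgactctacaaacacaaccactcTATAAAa
Mmp10 (chr9:7502222-7502341, plus strand): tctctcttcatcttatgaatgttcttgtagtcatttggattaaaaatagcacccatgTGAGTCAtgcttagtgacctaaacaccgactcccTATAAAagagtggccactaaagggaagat
Mmp7 (chr9:7691970-7692089, plus strand): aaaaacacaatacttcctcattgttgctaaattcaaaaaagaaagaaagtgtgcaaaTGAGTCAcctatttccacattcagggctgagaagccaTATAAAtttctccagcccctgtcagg
Mmp14 (chr14:54431478-54431597, plus strand): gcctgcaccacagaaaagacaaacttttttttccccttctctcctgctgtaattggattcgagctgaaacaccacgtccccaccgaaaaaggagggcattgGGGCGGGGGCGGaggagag
Timp2 (chr11:118355412-118355531, minus strand): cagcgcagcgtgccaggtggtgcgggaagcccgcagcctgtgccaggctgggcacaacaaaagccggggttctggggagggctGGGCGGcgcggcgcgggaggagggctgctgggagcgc
Timp3 (chr10:86300292-86300411, plus strand): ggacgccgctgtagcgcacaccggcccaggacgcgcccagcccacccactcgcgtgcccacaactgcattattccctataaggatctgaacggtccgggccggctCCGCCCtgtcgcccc
Adamts1 (chr16:85803114-85803233, minus strand): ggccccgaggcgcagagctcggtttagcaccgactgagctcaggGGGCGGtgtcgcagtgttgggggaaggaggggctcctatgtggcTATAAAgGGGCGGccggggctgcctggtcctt
For *Mmp12* the second of 2 annotated starts is shown, and for *Mmp7* the first of 2. In *Mmp13* the AP-1 site began 35 bases and the TATA box 16 bases before the start, and in *Mmp10* they began 63 and 29 bases before it. *Adamts1* differed from the other 3 genes shown outside the cluster in having a TATA box, 32 bases before the start, beside its 3 GC boxes. Its GC box 147 bases before the start lies outside the 120 bases shown. A match describes letters in this window and was not tied to a bound factor.

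**Figure D1:**
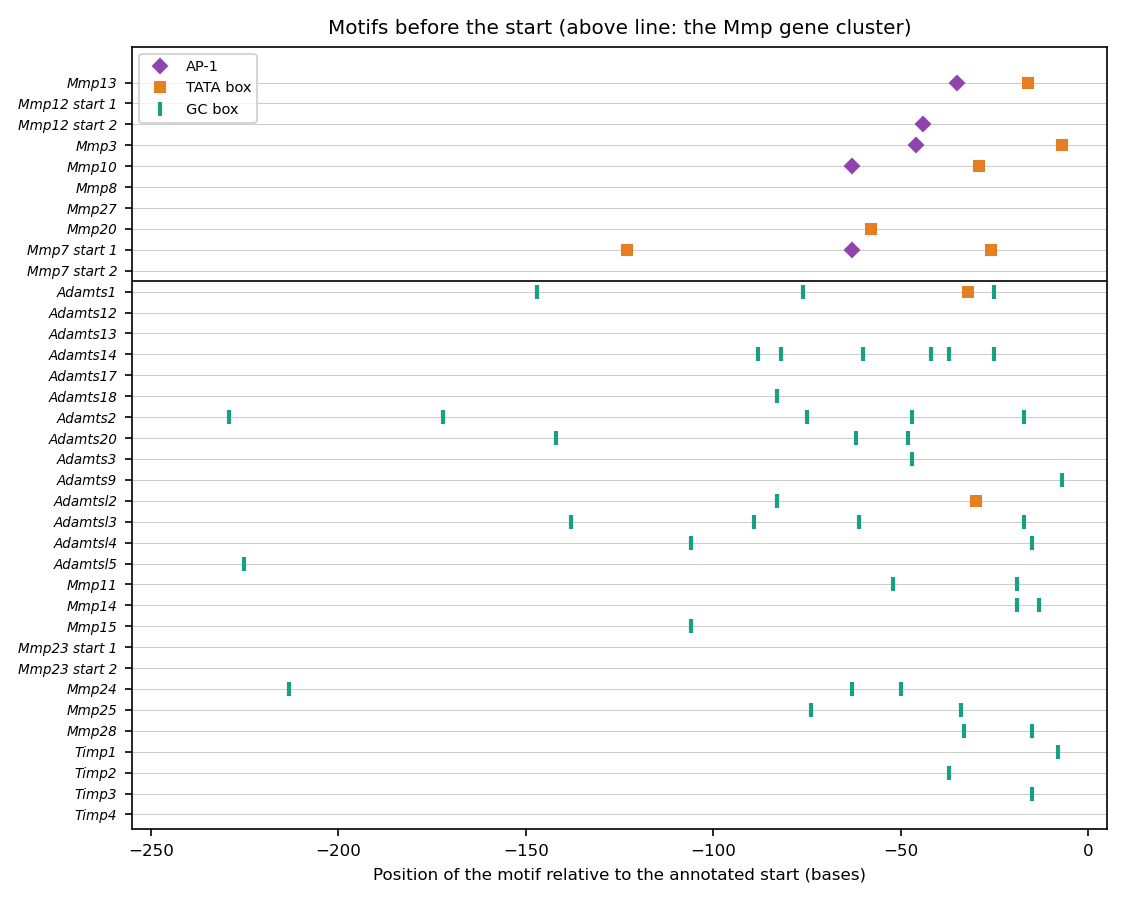
Position of AP-1, TATA box and GC box matches in the 250 bases before the annotated start (x axis, bases relative to the start) for the 33 members with a RefSeq promoter, 1 line per start. Above the horizontal line are the 8 neighbouring *Mmp* genes of chromosome 9, which held all AP-1 matches and no GC box.

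The tissue label was checked against 13 markers of colon epithelium, all of which had values above 0 in the 6 mice and whose summed FPKM lay between 10528 and 23325 in OP mice and between 11251 and 23497 in OR mice. Several of them differed widely between mice of both groups. *Aqp8*, a water channel of surface colonocytes, ranged from 10.08 to 1084.04 and *Muc2*, the main secreted mucin, from 17.59 in OP mouse 1 to 933.17 in OR mouse 3. The total FPKM was between 585350 and 600028 per mouse. Read numbers are not given with FPKM, and because values are rounded to 2 decimals the worth of 1 fragment could not be recovered, so the depth and the counting error are unknown. The p-values below set the difference between the groups against the spread among these 6 mice. In the limma-trend fits this spread was adjusted with that of all genes tested.

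Most of the 48 genes had low levels in the colon. A mean of at least 10 FPKM over the 6 mice was reached by 4 genes, a mean between 1 and 10 by 16 genes, and 28 genes had a mean below 1. *Mmp15*, which encodes the membrane-type protease MT2-MMP, had the highest mean at 66.9 FPKM, followed by *Timp2* at 27.4, *Timp3*, *Mmp14* at 17.3 and *Mmp2* at 8.19. The ranges of *Timp2* (16.63 to 39.88 FPKM) and *Timp3* (12.78 to 26.79 FPKM) overlapped with each other and with that of *Mmp14* (6.45 to 24.57 FPKM), whereas every value of *Mmp15* was above every value of the other members. In the chromosome 9 cluster, 42 of 48 values (8 genes in 6 mice) were below 1 FPKM and 14 were 0, and 2 of the 8 genes, *Mmp13* and *Mmp7*, passed the filter for testing. The 4 genes with AP-1 sites other than *Mmp7* had means between 0.113 FPKM in *Mmp10* and 0.725 FPKM in *Mmp13*.

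**Figure D2:**
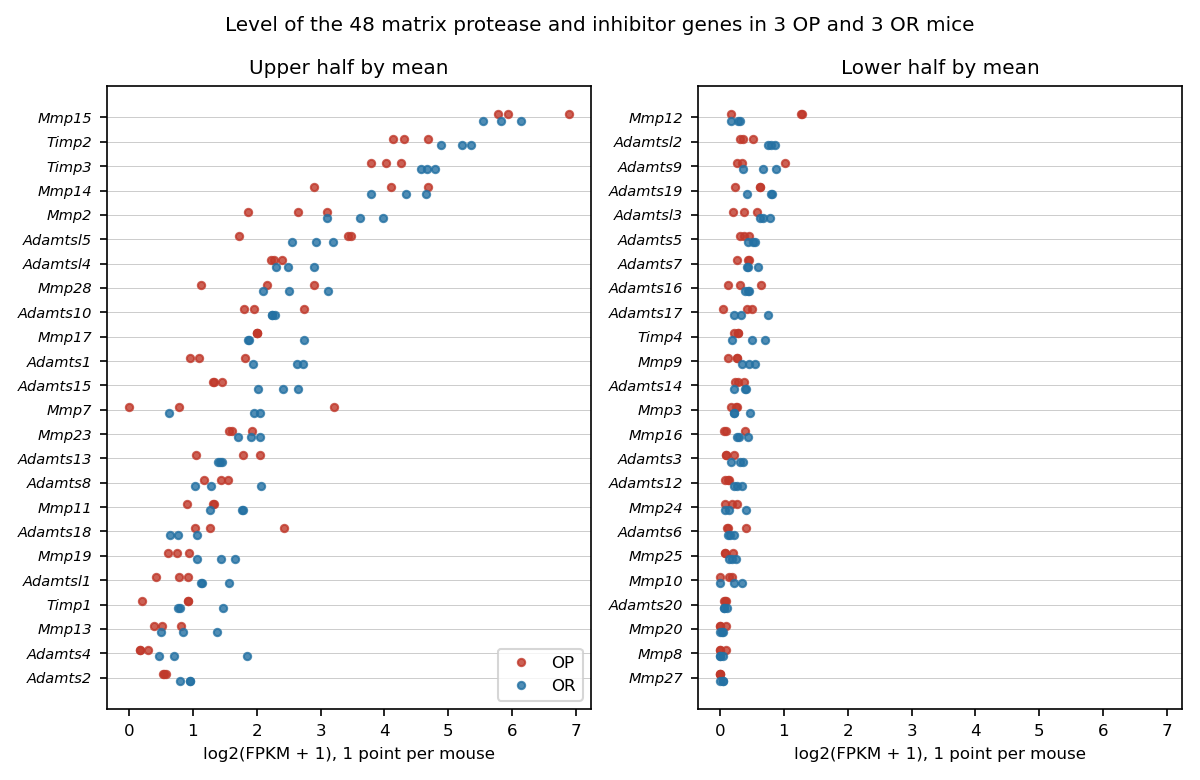
Level of each of the 48 genes in each mouse (x axis, log2(FPKM + 1), 1 point per mouse, OP in red and OR in blue), ordered by the mean of the 6 mice from top to bottom and from the left to the right panel. *Mmp15* stands above all others, *Timp2* and *Timp3* follow with OP and OR mice apart, and the genes of the right panel have means of 0.6 FPKM or less.

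The comparison of OP with OR mice asks whether colon gene expression differs between mice that gained most and least weight on the same diet. The mean FPKM was lower in OP mice for 38 of the 48 genes, among them the inhibitors *Timp2* and *Timp3*, the gelatinase *Mmp2* and the proteoglycanases *Adamts1* and *Adamts15*, whose OR means were between 1.6 and 2.97 times the OP means. The share of all genes with a lower mean FPKM was not counted. On the log2(FPKM + 1) scale without a filter, 66.2% of all genes were lower in OP mice, and 40 of the 48 members were. *Mmp15* and *Mmp14*, the 2 most abundant proteases of the list, had overlapping groups. Genes with at least 0.5 FPKM in at least 3 mice were tested with limma-trend on log2(FPKM + 1), a scale that understates the change of low genes, and 27 of the 48 members passed this filter. None of the 27 was called, with 0 higher and 0 lower at a q-value (Benjamini-Hochberg adjusted p over the 13520 genes tested) below 0.2 and an OP/OR fold of 1.2 or more, or of 0.83 or less. The same rule called 0% of all genes as higher and 0.0222% as lower in OP mice. The study, which used another test, DESeq2, reported more genes at these fold and q thresholds. They went in both directions, most of them lower in OP mice. The q-values of the 27 lay between 0.699 and 0.994.

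At an unadjusted limma-trend p below 0.05, 9 of the 27 members were lower in OP mice, where 3.53% of all genes tested were, and 0 were higher, where 0.503% of all genes were. These 9 are *Timp2*, *Timp3*, *Mmp2*, *Mmp19*, *Adamts1*, *Adamts15*, *Adamts2*, *Adamtsl1* and *Adamtsl2*. In *Adamts2* and *Adamtsl2* no OP mouse reached the filter of 0.5 FPKM, so both entered the test through the OR mice alone, and counts over the tested members lean towards OR for that reason. Without the filter, 12 of all 48 members were lower at an unadjusted p below 0.05, against 3.69% of 17775 genes, and 0 were higher, against 0.748%. The 2 groups were apart, with all OP mice below all OR mice, in 9 of the 27 tested members and 6.81% of all genes tested, and in 12 of all 48 members and 6.14% of all 17778 genes. The reverse, with OP mice higher, held in 0 of the 48 members and in 1.66% of genes. Over the 27 tested members the log2 fold changes OP/OR had a median of -0.33, and over all genes tested a median of -0.10. Negative values were found for 24 of the 27 tested members and 70.1% of all genes tested, and without the filter for 40 of the 48 members and 66.2% of all genes. Median-of-ratios scaling, which sets the mice to a common median gene, moved the median of all genes to 0.01 and that of the members to -0.26. Negative values were then found for 21 of the 27 members and 48% of all genes, with 8 members lower (3.13% of all genes) and 1 higher (1.13% of all genes) at an unadjusted p below 0.05. The count of 9 became 4 without OP mouse 2 and 5 without OR mouse 3.

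**Figure D3:**
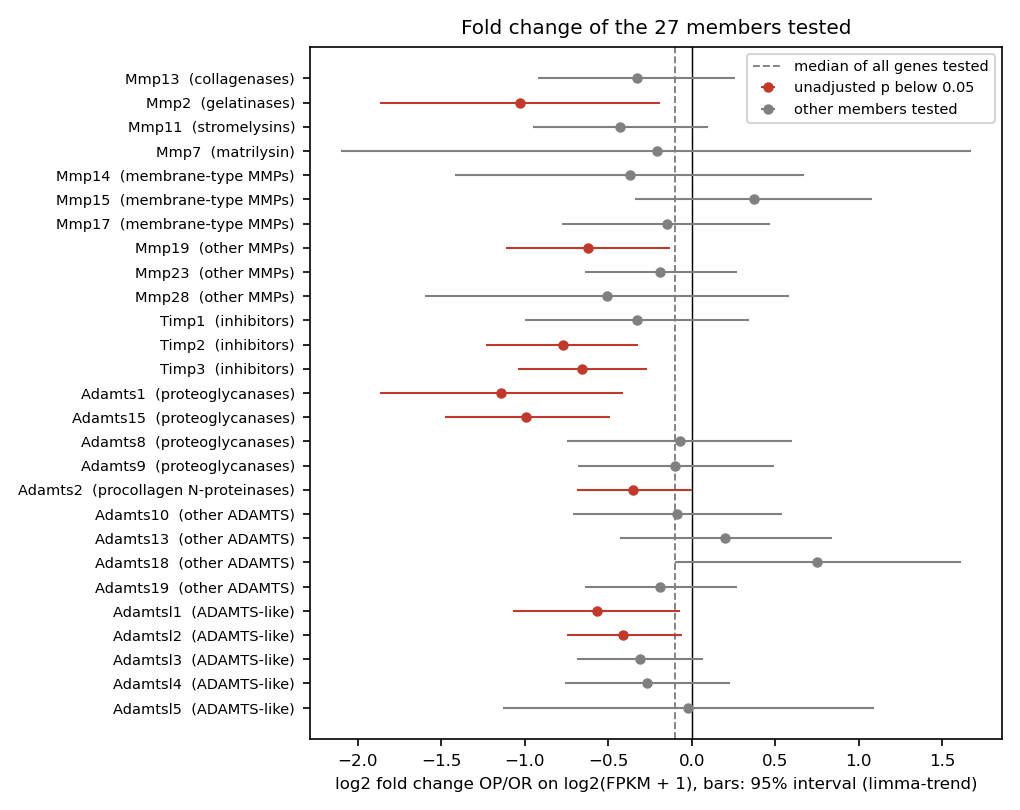
Log2 fold change OP/OR (x axis, log2(FPKM + 1) scale) of the 27 members tested, ordered by role, with 95% intervals from limma-trend; red marks an unadjusted p below 0.05 and the dashed line the median of all genes tested, -0.10. The 9 red intervals lie below 0, and *Adamts18* has the highest estimate at 0.75.

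Among the inhibitors, *Timp2*, which blocks MMPs and also helps MT1-MMP to activate pro-MMP2, showed 16.63, 18.78 and 24.73 FPKM in OP mice 1 to 3, against 36.06, 28.56 and 39.88 in OR mice 1 to 3. No OP mouse reached the lowest OR mouse, the OR mean being 34.8 ± 5.76 (SD, n = 3) and 1.74 times the OP mean. This was a log2 fold change of -0.77 (standard error 0.20, unadjusted limma-trend p = 0.00492, q = 0.798, exact permutation p = 0.1). *Timp3*, the matrix-bound inhibitor, had 12.78, 15.35 and 18.11 in the OP mice against 26.79, 24.45 and 22.77 in the OR mice. Here too the groups were apart, at 15.4 ± 2.67 (SD, n = 3) and 24.7 ± 2.02 (SD, n = 3), with a log2 fold change of -0.66 (standard error 0.17, unadjusted limma-trend p = 0.00501, q = 0.798, exact permutation p = 0.1). The two-sided exact permutation test of the means cannot give a p below 0.1 with 3 mice against 3. Relative to the median of all genes the log2 fold changes were -0.67 for *Timp2* and -0.55 for *Timp3*. Both genes kept an unadjusted p below 0.05 under all 14 alternative settings, and *Timp2* moved between -0.93 and -0.64 and *Timp3* between -0.77 and -0.52.

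The other inhibitors were scarce. *Timp1*, the inducible inhibitor, had 0.91, 0.15 and 0.91 FPKM in the OP mice against 0.75, 0.71 and 1.79 in the OR mice. These overlapped, with the lowest value in OP mouse 2 and the highest in OR mouse 3, and the log2 fold change was -0.33 with a 95% interval from -1.0 to 0.34. *Timp4* was below the filter, with 0.16, 0.22 and 0.22 FPKM in the OP mice against 0.41, 0.14 and 0.64 in the OR mice. *Timp2* made up between 53.0% and 61.3% of the summed *Timp* FPKM of a mouse. Exons of *Timp3* and *Timp4* share bases with exons of *Syn3* and *Syn2* on the opposite strand in the GENCODE M21 annotation. *Syn3* itself had at most 1.37 FPKM, and *Syn2* had 1.31 to 3.47 FPKM, above every value of *Timp4*. The library was strand-specific according to the methods, and whether quantification used the strand is not given in the sources used here.

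The gelatinase *Mmp2*, a fibroblast protease that degrades basement membrane collagen and denatured collagen, had 5.28, 2.64 and 7.56 FPKM in the OP mice against 7.55, 11.3 and 14.82 in the OR mice. The groups touched, since OP mouse 3 was just above OR mouse 1. The log2 fold change was -1.03 (standard error 0.36, unadjusted limma-trend p = 0.0232, q = 0.945, exact permutation p = 0.2), and the unadjusted p was above 0.05 without OP mouse 2, without OR mouse 2 and without OR mouse 3. *Mmp9*, the gelatinase of neutrophils and macrophages, was below the filter, with 0.2, 0.09 and 0.21 FPKM in the OP mice against 0.37, 0.46 and 0.27 in the OR mice. Its groups did not overlap, at levels below 0.5 throughout.

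Of the 6 membrane-type members, *Mmp15* had a higher mean FPKM in OP mice and the other 5 a lower one, and 0 of the 3 that were tested had an unadjusted p below 0.05. *Mmp15* had 117.57, 53.87 and 60.05 FPKM in the OP mice against 55.49, 69.1 and 45.4 in the OR mice. OP mouse 1 stood above the other 5 mice, which were mixed, and the log2 fold change was 0.37 with a 95% interval from -0.34 to 1.08. *Mmp14*, encoding MT1-MMP, the activator of pro-MMP2, had 6.45, 24.57 and 16.19 FPKM in the OP mice against 19.23, 12.91 and 24.26 in the OR mice. Its lowest value was in OP mouse 1 and its highest in OP mouse 2, and the interval of the log2 fold change of -0.37 ran from -1.42 to 0.67. Without OP mouse 1 the estimate for *Mmp14* was 0.12. *Mmp17*, a membrane-anchored protease also called MT4-MMP, had 3.03, 3.02 and 3.02 FPKM in the OP mice against 5.69, 2.67 and 2.65 in the OR mice, so that a single OR mouse set the higher OR mean, and without OR mouse 1 the log2 fold change turned from -0.15 to 0.14. *Mmp16*, *Mmp24* and *Mmp25* stayed below the filter, with at most 0.35 FPKM in any mouse.

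The proteoglycanases, which cut versican and related proteoglycans, held *Adamts1*, the member with the lowest log2 fold change, and *Adamts15*, the member with the lowest q-value. *Adamts1* had 0.95, 2.51 and 1.14 FPKM in the OP mice against 5.17, 2.84 and 5.63 in the OR mice. All OR values were above all OP values, at 4.55 ± 1.5 (SD, n = 3) against 1.53 ± 0.851 (SD, n = 3), with a log2 fold change of -1.14 (standard error 0.31, unadjusted limma-trend p = 0.00722, q = 0.826, exact permutation p = 0.1). *Adamts15* had 1.5, 1.52 and 1.75 FPKM in the OP mice against 5.29, 3.06 and 4.3 in the OR mice. The 3 OP mice lay close together and well below the OR mice, at 1.59 ± 0.139 (SD, n = 3) against 4.22 ± 1.12 (SD, n = 3), and the log2 fold change was -0.99 (standard error 0.21, unadjusted limma-trend p = 0.00202, q = 0.699, exact permutation p = 0.1). Both kept an unadjusted p below 0.05 in every alternative fit that could include them.

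*Adamts4*, an aggrecanase, had 0.13, 0.13 and 0.23 FPKM in the OP mice against 0.63, 0.38 and 2.6 in the OR mice. Its groups were apart but only 2 mice reached 0.5, so it was not tested, and 1 OR mouse carried most of the OR mean. *Adamts8* and *Adamts9* overlapped between the groups, with log2 fold changes of -0.07 (95% interval -0.75 to 0.60) and -0.10 (-0.68 to 0.49). *Adamts5* and *Adamts20* had at most 0.47 and 0.08 FPKM.

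*Adamts2*, which removes the amino-terminal propeptide of fibrillar procollagens, had 0.45, 0.47 and 0.49 FPKM in the OP mice against 0.94, 0.74 and 0.94 in the OR mice. The groups were apart by more than the spread within either, although all levels were below 1, and the log2 fold change was -0.35 (standard error 0.15, unadjusted limma-trend p = 0.0476, q = 0.945, exact permutation p = 0.1). The unadjusted p was above 0.05 under median-of-ratios scaling and without any 1 of the 3 OP mice. *Adamts2* entered the test through the OR mice alone, since no OP mouse reached the filter of 0.5 FPKM. Its relatives *Adamts3* and *Adamts14* were below the filter, with overlapping groups and at most 0.33 FPKM.

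Of the 5 ADAMTS-like genes, several of which act in microfibril assembly, 3 had all OP mice below all OR mice, at low levels. That order held for 6.81% of all genes tested. *Adamtsl1* had 0.72, 0.34 and 0.89 FPKM in the OP mice against 1.98, 1.2 and 1.18 in the OR mice, with a log2 fold change of -0.57 (standard error 0.21, unadjusted limma-trend p = 0.0299, q = 0.945, exact permutation p = 0.1). *Adamtsl2*, whose protein binds fibrillin and latent TGF-beta binding protein, had 0.28, 0.25 and 0.44 FPKM in the OP mice against 0.82, 0.68 and 0.75 in the OR mice, with a log2 fold change of -0.41 (standard error 0.15, unadjusted limma-trend p = 0.0278, q = 0.945, exact permutation p = 0.1). In both genes every OP mouse was below every OR mouse. *Adamtsl2* entered the test through the OR mice alone, since no OP mouse reached 0.5 FPKM. The unadjusted p was above 0.05 for *Adamtsl1* without OP mouse 2 or OR mouse 1, and for *Adamtsl2* without OP mouse 1 or OP mouse 2. *Adamtsl3* had 0.3, 0.5 and 0.15 FPKM in the OP mice against 0.73, 0.55 and 0.59 in the OR mice, again without overlap, but with an unadjusted limma-trend p of 0.0988. All 3 OR mice but only 1 OP mouse reached the filter of 0.5 FPKM in *Adamtsl3*. The 2 more abundant genes overlapped: *Adamtsl4*, a fibrillin-binding gene, had 3.82, 4.24 and 3.69 against 6.47, 4.63 and 3.91 FPKM. *Adamtsl5* had 9.74, 2.29 and 10.1 FPKM in the OP mice against 6.59, 8.21 and 4.86 in the OR mice. OP mouse 2 was the lowest of the 6, and the log2 fold change of -0.02 had an interval from -1.13 to 1.09.

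Of the other ADAMTS genes, *Adamts18* had the highest log2 fold change of the tested members at 0.75, with an interval from -0.10 to 1.61. Its FPKM was 1.04, 1.42 and 4.41 in the OP mice against 0.56, 1.09 and 0.71 in the OR mice, so the groups overlapped and OP mouse 3 alone was above 2. It is the 1 member counted as higher with median-of-ratios scaling. *Adamts10*, a fibrillin-associated member, had 2.5, 2.9 and 5.66 FPKM in the OP mice against 3.86, 3.71 and 3.75 in the OR mice. *Adamts13*, the protease of von Willebrand factor, had a log2 fold change of 0.20 (95% interval -0.43 to 0.84). *Adamts12* was below the filter and apart between the groups, with 0.06, 0.11 and 0.09 FPKM against 0.21, 0.16 and 0.27. *Adamts19* was tested at a log2 fold change of -0.19, with 0.18, 0.55 and 0.54 FPKM in the OP mice against 0.77, 0.34 and 0.75 in the OR mice. *Adamts6*, *Adamts7*, *Adamts16* and *Adamts17* were below the filter with overlapping groups, and their highest value was 0.69 FPKM, for *Adamts17* in OR mouse 3.

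The remaining MMPs gave 1 further member below the unadjusted level. *Mmp19*, a stromal MMP of basement membrane turnover, had 0.68, 0.53 and 0.93 FPKM in the OP mice against 1.09, 1.71 and 2.16 in the OR mice. No OP mouse reached the lowest OR mouse, and the log2 fold change was -0.62 (standard error 0.21, unadjusted limma-trend p = 0.0200, q = 0.945, exact permutation p = 0.1). As for *Mmp2*, the unadjusted p was above 0.05 without OP mouse 2, without OR mouse 2 and without OR mouse 3. Its exons share bases with *Tmem198b* on the opposite strand, which had 2.52 to 5.23 FPKM. *Mmp28*, encoding epilysin, had 1.19, 6.42 and 3.47 FPKM in the OP mice against 4.68, 3.27 and 7.68 in the OR mice, with OP mouse 1 lowest as for *Mmp14*. *Mmp11*, encoding stromelysin-3, had a log2 fold change of -0.43 (95% interval -0.95 to 0.10), *Mmp13*, a collagenase, of -0.33 (-0.92 to 0.26) and *Mmp23* of -0.19 (-0.64 to 0.27). *Mmp11* exons share bases with those of *Chchd10* on the opposite strand, a gene with at least 203.49 FPKM.

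In 2 genes of the chromosome 9 cluster shown above by sequence, 1 or 2 mice stood far above the rest of their group. *Mmp7*, encoding matrilysin, an epithelial protease, was 0 in OP mouse 1 and had 0.72 and 8.31 FPKM in OP mice 2 and 3, against 3.16, 0.55 and 2.87 in the OR mice. The interval of its log2 fold change of -0.21 ran from -2.10 to 1.67, so a difference in either direction was not resolved. *Mmp12*, the macrophage elastase, had 1.42, 0.13 and 1.45 FPKM in the OP mice against 0.25, 0.13 and 0.22 in the OR mice. OP mice 1 and 3 were above all OR mice while OP mouse 2 was as low as OR mouse 2, and the gene was not tested because only 2 mice reached 0.5 FPKM. *Mmp3*, *Mmp10*, *Mmp8*, *Mmp27* and *Mmp20* had at most 0.39 FPKM in any mouse.

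Summed over each family, the inhibitors were apart between the groups and the MMPs overlapped. The 4 *Timp* genes together had 30.5, 34.5 and 44.0 FPKM in the OP mice against 64.0, 53.9 and 65.1 in the OR mice, without overlap. The 20 *Mmp* genes together had 140, 97.0 and 106 FPKM against 104, 108 and 108, and *Mmp15* alone made up between 42.1% and 83.9% of a mouse's sum. The ratio of the *Mmp* sum to the *Timp* sum was 4.60, 2.81 and 2.41 in the OP mice against 1.63, 2.01 and 1.66 in the OR mice, so all OP mice were higher. Without *Mmp15* the ratio was 0.740, 1.25 and 1.05 in the OP mice against 0.762, 0.725 and 0.959 in the OR mice, and the groups overlapped. These sums describe RNA levels and were not tested, since the genes were chosen as a list. The 19 *Adamts* genes summed to between 12.4 and 21.4 FPKM in OP mice and between 17.7 and 25.1 in OR mice.

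**Figure D4:**
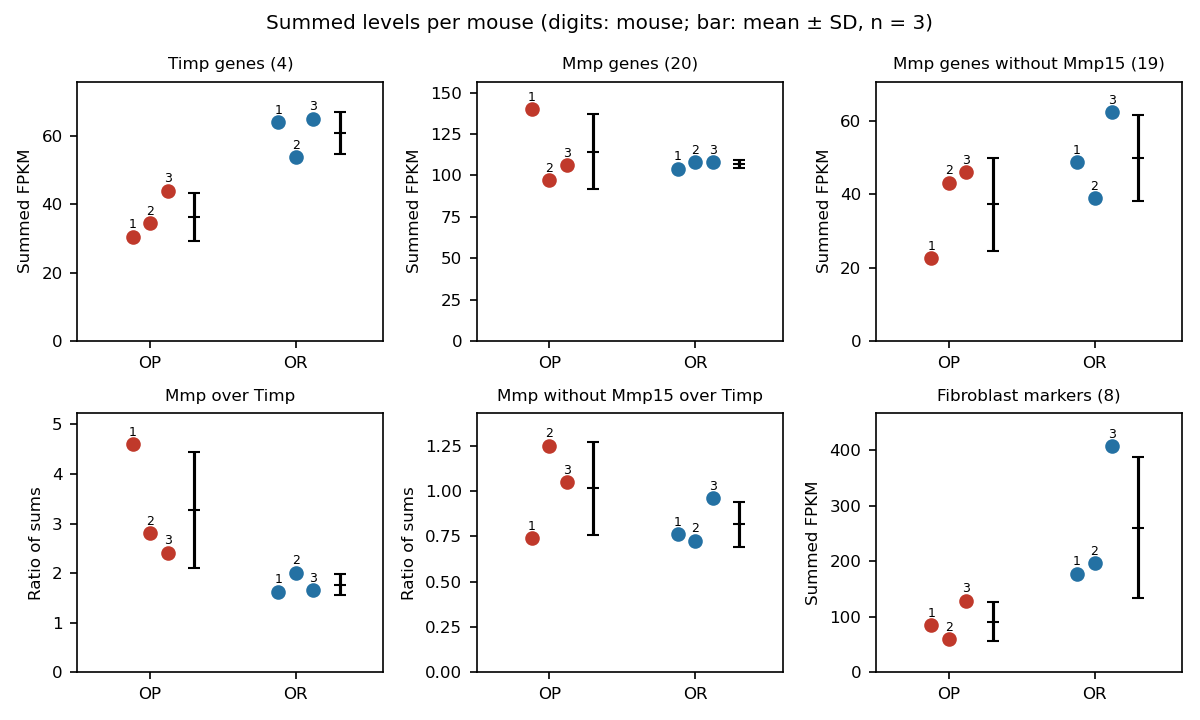
Summed FPKM per mouse of the *Timp* genes, the *Mmp* genes with and without *Mmp15*, and 8 fibroblast markers, and the ratios of the *Mmp* to the *Timp* sums (points: mice 1 to 3 of each group; bars: mean ± SD, n = 3). The *Timp* sums, the ratio with *Mmp15* and the fibroblast marker sums were apart between OP and OR mice, and the ratio without *Mmp15* overlapped.

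Markers of cell types that the tissue could hold were read beside these genes. Of the 8 fibroblast markers 4 were lower at an unadjusted limma-trend p below 0.05, where 3.53% of all genes tested were. The 8 summed to 59.5 to 129 FPKM in OP mice and 178 to 407 in OR mice. *Dcn* and *Dpt* had the highest FPKM of the 8, and *Pdgfra*, *Pdgfrb*, *Lum* and *Thy1* overlapped between the groups. The 6 blood endothelium markers were all lower at an unadjusted limma-trend p below 0.05, with sums of 8.17 to 14.4 in OP mice and 16.3 to 28.3 in OR mice. Of the 9 macrophage markers 8 were lower at that level, with sums of 81.3 to 256 and 180 to 247, and *Lyz2*, the most abundant of them, overlapped between the groups with 48.71 to 166.37 FPKM in OP mice. Smooth muscle markers were lower in 0 of 6 at that level (sums 1391 to 2224 and 1722 to 3195), adipocyte markers in 0 of 6 (22.2 to 132 and 62.3 to 240) and T cell markers in 0 of 5 (9.22 to 32.1 and 23.5 to 27). The 13 epithelial markers had 0 lower and 0 higher. Negative log2 fold changes, which 70.1% of all genes tested had, were found for all 8 fibroblast, 9 macrophage, 6 endothelial, 6 smooth muscle and 5 T cell markers, for 5 of 6 adipocyte and for 4 of 13 epithelial markers. The adipocyte markers *Adipoq*, *Plin1*, *Lep* and *Retn* were at 0 in OP mouse 2, and 4 of the 6 neutrophil markers were below the filter. Summed neutrophil markers were 1.22 to 15.2 FPKM in OP and 1.41 to 2.39 in OR mice, with *S100a8* at 0 in 2 mice, *Ly6g* in 1 and *Retnlg* in 4. The sum of 15.2 was that of OP mouse 2, where *Ly6g* alone had 12.54 FPKM. OP mice 1 and 3 had sums of 3.07 and 1.22. In whole colon tissue, fewer cells of a type and less RNA per cell cannot be told apart, and the part of these cell types in the differences of the protease and inhibitor genes was not tested.

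Other genes of matrix turnover were read from lists of 50 genes in all, of which 40 were tested and 0 were called at a q-value below 0.2 by limma-trend. At an unadjusted p below 0.05, 11 were lower and 1 was higher in OP mice, against the 3.53% and 0.503% of all genes. Of the 11 lower genes, 10 belonged to the 11 tested genes of cleaved matrix, including the versican gene *Vcan*, a substrate of ADAMTS proteoglycanases, with 0.69, 0.51 and 0.61 FPKM in the OP mice against 1.21, 1.2 and 1.94 in the OR mice. Every OP mouse was below every OR mouse for *Vcan*. The lists were chosen with earlier results of these data known, and the study had reported *Col1a1* and *Col3a1* as higher in OR mice. *Dcn* and *Col1a2* are also among the fibroblast markers above. The count of cleaved matrix genes is therefore only a description. *Dcn*, encoding the collagen-binding proteoglycan decorin, had the lowest log2 fold change of these lists at -2.03 (standard error 0.39, unadjusted limma-trend p = 0.00105, q = 0.624, exact permutation p = 0.1). The last of the 11 was *Pcolce*, encoding an enhancer of procollagen C-terminal processing, with 5.03, 6.06 and 8.29 FPKM in the OP mice against 11.7, 9.19 and 16.72 in the OR mice, all of the latter higher.

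Among the 5 plasminogen system genes tested, the 7 ADAM proteases and the 6 cathepsins, 0 were lower and 0 higher at an unadjusted limma-trend p below 0.05. Their median log2 fold changes were -0.45 for the plasminogen system, -0.03 for the ADAM proteases and 0.10 for the cathepsins, and the difference from the other lists was not tested. *Ctsk*, encoding cathepsin K, had 1.78, 0.98 and 1.77 FPKM in the OP mice against 1.79, 1.87 and 3.72 in the OR mice, a separation of 0.01 FPKM between the nearest mice. *Mep1b*, encoding the beta subunit of meprin, an epithelial brush border metalloprotease, was the 1 higher gene, with 135.78, 166.92 and 111.43 FPKM in the OP mice against 113.95, 99.18 and 73.56 in the OR mice. OP mouse 3 lay below OR mouse 1, and the log2 fold change was 0.53 (standard error 0.21, unadjusted limma-trend p = 0.0387, q = 0.945, exact permutation p = 0.2). *Mep1a*, its alpha subunit gene, had 487.9, 236.92 and 410.07 against 392.33, 309.18 and 232.21 FPKM, with overlapping groups. Both meprin genes had FPKM levels above those of all members in every mouse.

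**Figure D5:**
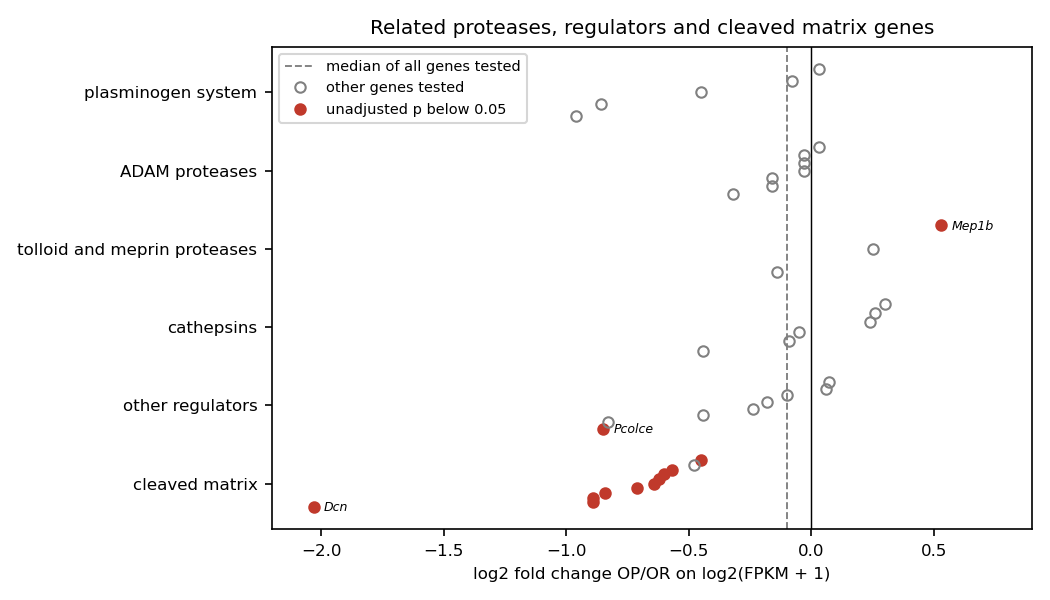
Log2 fold change OP/OR (x axis, log2(FPKM + 1) scale) of the 40 tested genes in 6 lists of related proteases, regulators and cleaved matrix genes, 1 point per gene; red marks an unadjusted limma-trend p below 0.05 and the dashed line the median of all genes tested. The red points are 10 genes of cleaved matrix and *Pcolce* on the left and *Mep1b* on the right.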

How the data were processed

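Colon RNA of 3 OP and 3 OR mice was measured by mRNA sequencing, with 1 library per mouse, grouped by the labels. The authors deposited FPKM values rounded to 2 decimals. According to the methods, SOAPnuke cleaned the reads, Bowtie2 placed them on mouse transcripts and RSEM estimated the levels, with GRCm39 as the build in the labels; tool versions differ between methods and labels, and the labels also list HISAT2. From these values, genes with at least 0.5 FPKM in at least 3 mice were tested by limma-trend (limma 3.58.1, R 4.3.3) on log2(FPKM + 1), without covariates, with Benjamini-Hochberg adjustment over 13520 genes. The authors' tool, DESeq2, needs read counts and was not run. Single genes were compared by two-sided exact permutation tests (SciPy 1.17.1). The fit was tested on simulated data. Depth is unknown.

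Members and lists were chosen with earlier results of these data known. Values in every mouse are given for all *Timp* genes, tested members with an unadjusted p below 0.05 or groups apart, and the 10 most abundant; *Mmp7*, *Mmp9*, *Mmp12*, *Adamts4*, *Adamts12*, *Adamts18* and *Adamts19* were added after their values were seen. Alternatives were limma without trend, median-of-ratios and TPM scaling, a pseudocount of 0.1, other filters, sample weights, a block for the replicate number, other thresholds and each mouse left out. Promoter and exon annotations are of another build than the authors' and were matched by symbol.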

Additional observations from a re-analysis of the deposited data

How the results depend on the processing

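With 3 mice a group and unknown depth, low members are the least certain. The counts of members called at a q-value below 0.2 were 0 higher and 0 lower under all alternatives run. At an unadjusted limma-trend p below 0.05, the 9 members lower in OP mice became 4 when an FPKM of at least 1 was required in all 6 mice, which left 14 members tested. Over the fits that each left out 1 mouse the count ranged from 4 to 8, with 4 without OP replicate 2 and 5 without OR replicate 3. The count of 0 higher became 1, *Adamts18*, with median-of-ratios scaling and 1 with sample weights, and ranged from 0 to 1 with each mouse left out. The median log2 fold change of the tested members, -0.33, was -0.67 with a pseudocount of 0.1 and -0.15 with no filter, where 48 members entered. *Adamts2* and *Adamtsl2* missed the filter when an OR mouse was left out or the filter was stricter, and could not be fitted there. The cause was not tested, apart from the number of members that the filters let in. The direction reversed in 4 of the 18 named members tested: *Adamts10* (0.02 with median-of-ratios scaling, from -0.37 to 0.09 with each mouse left out), *Adamtsl5* (0.10, and from -0.32 to 0.56), *Mmp14* (from -0.76 to 0.12) and *Mmp17* (from -0.30 to 0.14).

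With the replicate block, the paired fit, 6 members were lower at an unadjusted p below 0.05 and 0 higher, without *Adamts2*, *Adamtsl1* and *Adamtsl2*, and the median stayed at -0.33. Same-numbered mice are different animals. Their deviations from the group means had correlations of -0.144, -0.157 and 0.0709, and no mouse correlated best with the mouse of its own number, so the fit without the block was kept.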
